A study of Mus musculus with 2 samples.

Results

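A set of 9 genes listed as motor column and pool identity genes was followed in the open chromatin of MN1, an immortalized mouse cell line. The members were listed by name (Foxp1, Aldh1a2, Pou3f1, Onecut1, Onecut2, Etv1, Etv4, Mecom and Chodl), out of 21938 protein-coding genes in the annotation. The study mapped DNA that DNase I can reach, in 1 group of 2 biological replicates with 1 library each. The labels give the strain as B6NCrl and name no treatment, no genetic change and no tissue of origin, and they give no age, stage or sex. Both libraries come from 1 established line, so they show that line and not motor neurons in an embryo. Each member was read over its gene body plus 50 kb on each side, on mm10.

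Motor neurons of the spinal cord settle in columns that each serve one part of the body, such as limb muscle, body wall or autonomic ganglia. Within the limb columns, the neurons that serve a single muscle form a pool. Columns are set up by Hox proteins and their partners and by LIM homeodomain factors, whereas pool factors such as those of the ETS family are switched on later, partly by signals from the limb. DNase I cuts where nucleosomes are displaced, which happens at promoters in use or held ready and at distal regulatory elements, so a peak marks an accessible site and does not measure transcription.

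The deposited peaks were 150 bp wide, with a score made by the authors that reaches at most 150. The scale of the score is not stated, so it is also given as a percentile of the library's own list, where 100 is the highest. A pair of scores or percentiles gives replicate 1 and then replicate 2, unless the libraries are named. On the main chromosomes the lists held 170286 peaks in replicate 1 and 162691 in replicate 2. Read depth is not known. A shared peak is a peak of replicate 1 that overlaps one of replicate 2 by at least 1 bp, a promoter peak reaches within 1 kb of any start site of the gene, and a distal peak lies outside the promoters of all protein-coding genes. Of 10 motor neuron marker genes, 8 were open at the start (a promoter peak in each library), among them Isl1, Lhx3, Chat and Slc18a3. Slc18a3 lies within the Chat gene, so Chat and Slc18a3 are 1 locus. Mnx1 and Slc5a7 had no promoter peak. Of 8 sympathoadrenal markers 5 had one in both libraries, namely Phox2a, Hand2, Gata2, Gata3 and Mycn. Dbh had one in a single library, and Th and Ddc had none. Of 4 mesenchymal markers 3 had one, of 3 glial markers 1, and of 2 blood markers 0. Of all protein-coding genes, 59.2% were open in both libraries. The part of another cell identity in the values below was not tested.

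Foxp1, Onecut2, Etv1 and Etv4 were open at the start in both libraries. Aldh1a2, Pou3f1, Onecut1, Mecom and Chodl had no promoter peak and no promoter hotspot in either library, a hotspot being a wider region of enriched cutting. The count of 4 of 9 stands beside 59.2% of all protein-coding genes (12990 of 21938). No member had a promoter peak in only 1 library, against 3.55% of all genes. Every member had at least 1 shared distal peak in its window, as did 81.1% of all genes. The 9 windows held 166 peaks in replicate 1 and 160 in replicate 2, of which 116 and 119 overlapped a peak of the other library. These counts differ because 1 peak can overlap several. The shared part was 69.9% in replicate 1 and 74.4% in replicate 2, against 67.1% and 70.2% over all peaks of each library. The series has no second group, so these shares are descriptions and no test was made.

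**Figure D1:**
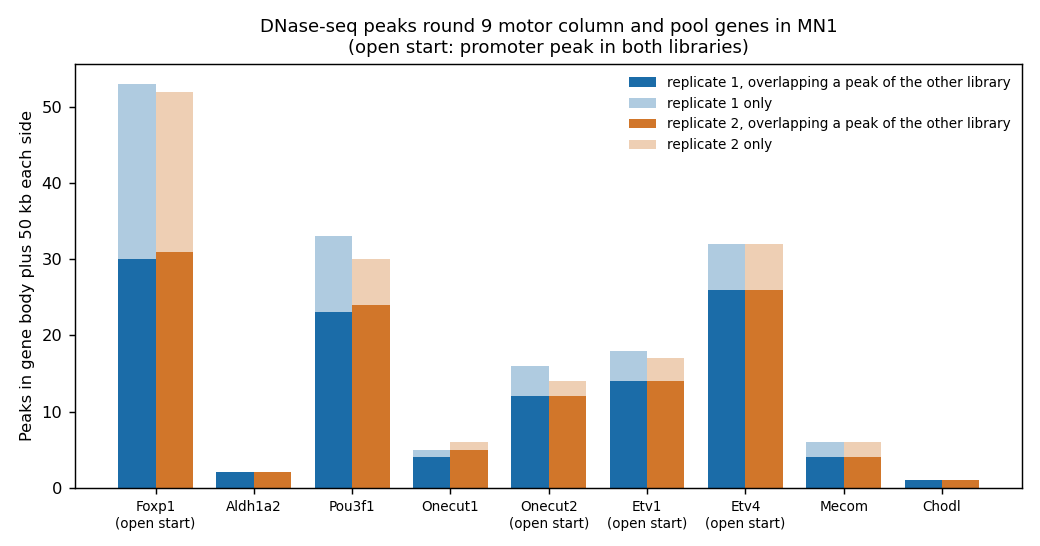
Number of DNase-seq peaks in the gene body plus 50 kb each side (vertical axis) for the 9 members, with replicate 1 in blue and replicate 2 in orange; the dark part overlaps a peak of the other library and the pale part does not. The bars of the libraries stand close together at every gene, from 53 and 52 peaks at Foxp1 to 1 and 1 at Chodl.

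The members differed far more from each other than the libraries did. Foxp1, Etv4 and Pou3f1 together held 79 of the 116 shared peaks (68.1%), while Aldh1a2 and Chodl held 2 and 1. Since the windows differ in length, shared peaks were also counted per 100 kb of window. On that scale Etv4 had 22.5 and Pou3f1 22.1, at the 90.0th and 89.6th percentile of all protein-coding genes. Onecut2 followed with 7.45 and Etv1 with 7.33, then Foxp1 with 4.30, Onecut1 with 3.08, Aldh1a2 with 1.11, Chodl with 0.828 and Mecom with 0.574. The neighbours Etv4 and Pou3f1, and Onecut2 and Etv1, differed by less than 1 shared peak per 100 kb. The median of the members was 4.30, against 7.78 for all protein-coding genes, 11.6 for the 12990 open at the start and 0.919 for the 8169 with none. Pou3f1 had no peak at its start, and many of the peaks counted for it lay nearer to other genes' starts. With only peaks nearest to a member's own start it had 7.70 per 100 kb, and Etv4 had 18.2. That count was not made for all protein-coding genes, so these values are not to be set against the medians above.

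**Figure D2:**
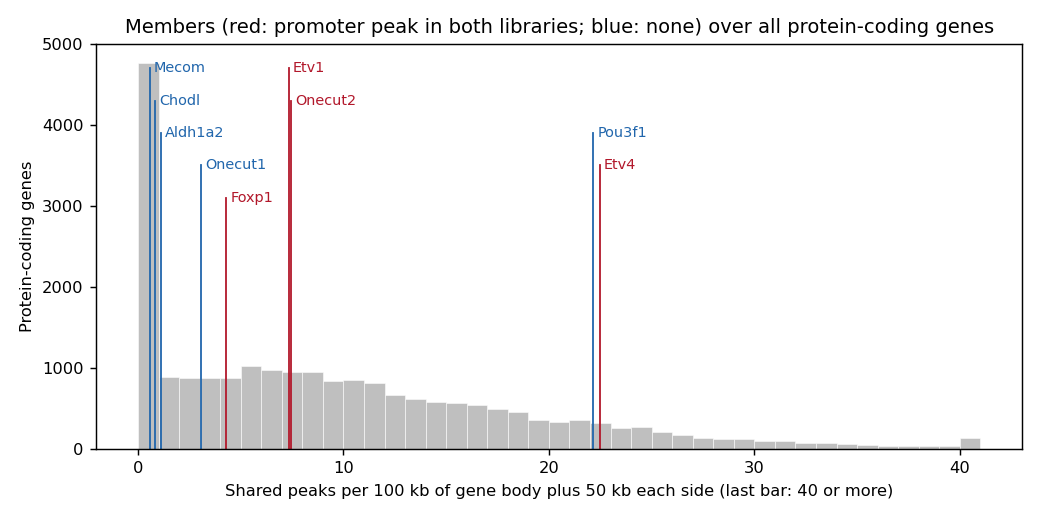
Histogram of shared peaks per 100 kb of gene body plus 50 kb each side (horizontal axis) over all protein-coding genes in grey, with vertical lines for the members, in red with a promoter peak in both libraries and in blue with none; line heights only separate the names. Pou3f1 at 22.1 stands beside Etv4 at 22.5, apart from the other 4 members in blue, which lie between 0.574 and 3.08. With only peaks nearest to the own start, Pou3f1 has 7.70 and Etv4 18.2, whereas the grey bars count all shared peaks.

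Foxp1 encodes a forkhead factor that works with Hox proteins, and its level separates the limb-innervating and preganglionic columns from the others. The gene spans 597.4 kb on the minus strand of chromosome 6 (98925338 to 99522721) and has 22 annotated start sites, which fall into 13 groups when sites within 1 kb are joined. Replicate 1 had 9 promoter peaks and replicate 2 had 10, of which 6 were shared. Of the 13 groups, 4 held a shared peak. The 2 groups at the 5′ end shared 1 hotspot, 2835 bp wide in replicate 1 and 3050 bp in replicate 2. The highest-scoring promoter peak lay 710 bp upstream of the outermost start, with scores of 120 and 119 (percentiles 93.0 and 93.4). Another accessible group lay 494 kb further downstream in GC-rich sequence, with 6 start sites over 0.952 kb, and its shared peak scored 62 and 65. The last accessible one lay 519 kb downstream, with scores of 73 and 42. A start group 256 kb into the gene had only a weak peak of replicate 1, at percentile 13.0, and the 8 other groups had none. The promoter group with 5 coding transcripts 359.7 kb into the gene was among those without a peak.

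The body of Foxp1 carried 28 of its 30 shared peaks. Among the 230 protein-coding genes of 500 kb or more, 64 had at least 28 in the body and the median was 4. The highest-ranked shared distal peaks formed a pair in an intron 36.85 and 37.35 kb downstream of the outermost start, inside 1 hotspot of 1719 bp in replicate 1. They scored 111 and 95 in replicate 1, and 96 and 105 in replicate 2, so the higher one differs between the libraries. The next highest distal peak was intronic, 464 kb downstream, and scored 87 and 65. Foxp1 had the most peaks of 1 library alone, 23 in replicate 1 and 21 in replicate 2, and its shared part was the lowest of the members at 56.6% and 59.6%. The predicted gene Gm20696 overlaps the 5′ part of Foxp1 and its upstream flank, so peaks there lie in both. The top promoter peak and the top distal peak are shown with the MEIS-type core TGACAG, read on either strand, in capitals.
Foxp1 promoter peak, chr6:99523356-99523505, plus strand: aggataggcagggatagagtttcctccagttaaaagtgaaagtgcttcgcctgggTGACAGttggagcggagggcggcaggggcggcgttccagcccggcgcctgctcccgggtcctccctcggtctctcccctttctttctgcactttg
Foxp1 intronic peak, chr6:99485796-99485945, plus strand: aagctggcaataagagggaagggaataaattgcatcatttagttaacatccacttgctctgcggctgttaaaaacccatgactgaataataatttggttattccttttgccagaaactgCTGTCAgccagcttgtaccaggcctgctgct

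Onecut1 and Onecut2 encode Cut homeodomain factors of newborn motor neurons, where they act on Isl1. The pair was split. Onecut2 (chromosome 18, 64340020 to 64400987) had 3 promoter peaks in each library, all shared. The one at its single start site was among the highest peaks of any member, with scores of 140 and 138 (percentiles 98.3 and 98.1). Its 9 shared distal peaks included 3 that lay 7.59 to 8.35 kb upstream in 1 hotspot, and the strongest was intronic, 22.5 kb into the gene, with scores of 60 and 73.

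Onecut1 (chromosome 9, 74861921 to 74891781) had no promoter peak at either of its 2 start sites, and its main start lay in a stretch of 56.2 kb with no peak of either library. It had 5 peaks in replicate 1 and 6 in replicate 2, with 4 shared. One of these was intronic, 4687 bp from the nearer start site, with scores of 45 and 25. The other 3 lay 43.1 to 47.5 kb downstream of the main start, beyond the 3′ end, and the outer ones scored 77 and 79 (at 74904976) and 90 and 74 (at 74909356).

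The intronic peak of Onecut1 is shown because it is the only one in the gene, with a match to the ONECUT core ATTGAT in capitals. It also holds a match to the consensus of CTCF, the insulator protein.
Onecut1 intronic peak, chr9:74871096-74871245, plus strand: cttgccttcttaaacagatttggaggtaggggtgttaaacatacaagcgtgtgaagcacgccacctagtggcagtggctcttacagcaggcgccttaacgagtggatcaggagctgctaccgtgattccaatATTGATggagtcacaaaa

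Etv1 (also known as Er81) and Etv4 (also known as Pea3) encode ETS factors of the same subfamily that mark single motor pools. GDNF from the limb is known to induce Etv4. Both were accessible at the 5′ end in both libraries. Etv1 (chromosome 12, 38779380 to 38870484) had 7 promoter peaks in replicate 1 and 6 in replicate 2, with 6 shared, all in the first of its 4 start groups. That group spans 1.75 kb and holds 8 of its 13 start sites. From the most upstream to the most downstream, the 6 shared peaks scored 140, 94, 83, 119, 93 and 67 in replicate 1, and 129, 91, 65, 105, 68 and 54 in replicate 2. The order of heights was the same in both, with 1 peak upstream of the start and 1 over an inner start site standing highest. The 3 other start groups, 4.09 to 58.0 kb further downstream, had no promoter peak.

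Of the 14 shared peaks at Etv1, 11 lay in the gene body. The 3 highest distal ones lay 9.45, 45.2 and 64.4 kb into the gene. They scored 109, 107 and 110 in replicate 1 against 73, 91 and 70 in replicate 2, so in percentiles each stood lower in replicate 2 (76.5, 84.7 and 74.9) than in replicate 1 (89.6, 88.9 and 89.9). The highest promoter peak is shown with the CCAAT-box core ATTGGCT in capitals. The peak at 64.4 kb is shown with the HOX-PBX consensus TGATTNAT in capitals, which there overlaps a match to ATTGAT.
Etv1 promoter peak, chr12:38778616-38778765, plus strand: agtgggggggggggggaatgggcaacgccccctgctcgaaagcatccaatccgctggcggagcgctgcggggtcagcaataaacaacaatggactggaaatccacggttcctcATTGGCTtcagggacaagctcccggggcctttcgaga
Etv1 intronic peak, chr12:38843696-38843845, plus strand: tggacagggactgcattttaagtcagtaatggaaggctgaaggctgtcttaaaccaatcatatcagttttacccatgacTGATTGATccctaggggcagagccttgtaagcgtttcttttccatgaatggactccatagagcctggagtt

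Etv4 lies on the minus strand of chromosome 11 (101769742 to 101785371). Each library had 8 promoter peaks there and 7 were shared. The strongest lay over the outermost start group, with scores of 138 and 134 (percentiles 97.8 and 97.1), in a hotspot of 2957 bp in replicate 1 and 2336 bp in replicate 2. Both start groups of the gene were accessible: the inner one, 13.2 kb downstream and used by 1 noncoding transcript, held shared peaks that scored 92 and 37 in replicate 1, and 103 and 30 in replicate 2. Of the 26 shared peaks, 4 lay at the promoter of Dhx8, an RNA helicase gene that ends 2.38 kb from Etv4, and 15 were distal. The highest of these lay 29.6 kb upstream with scores of 99 and 83, beside one 28.1 kb upstream with 88 and 74, and both hold the CTCF consensus. The promoter peak 1.58 kb into the gene is shown because it holds the HOX-PBX consensus, in capitals, and 1 match to the ONECUT core ATCGAT.
Etv4 promoter peak, chr11:101783716-101783865, plus strand: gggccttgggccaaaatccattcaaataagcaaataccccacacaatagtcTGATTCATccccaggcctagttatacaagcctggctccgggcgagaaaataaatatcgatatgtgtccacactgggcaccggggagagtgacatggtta

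**Figure D3:**
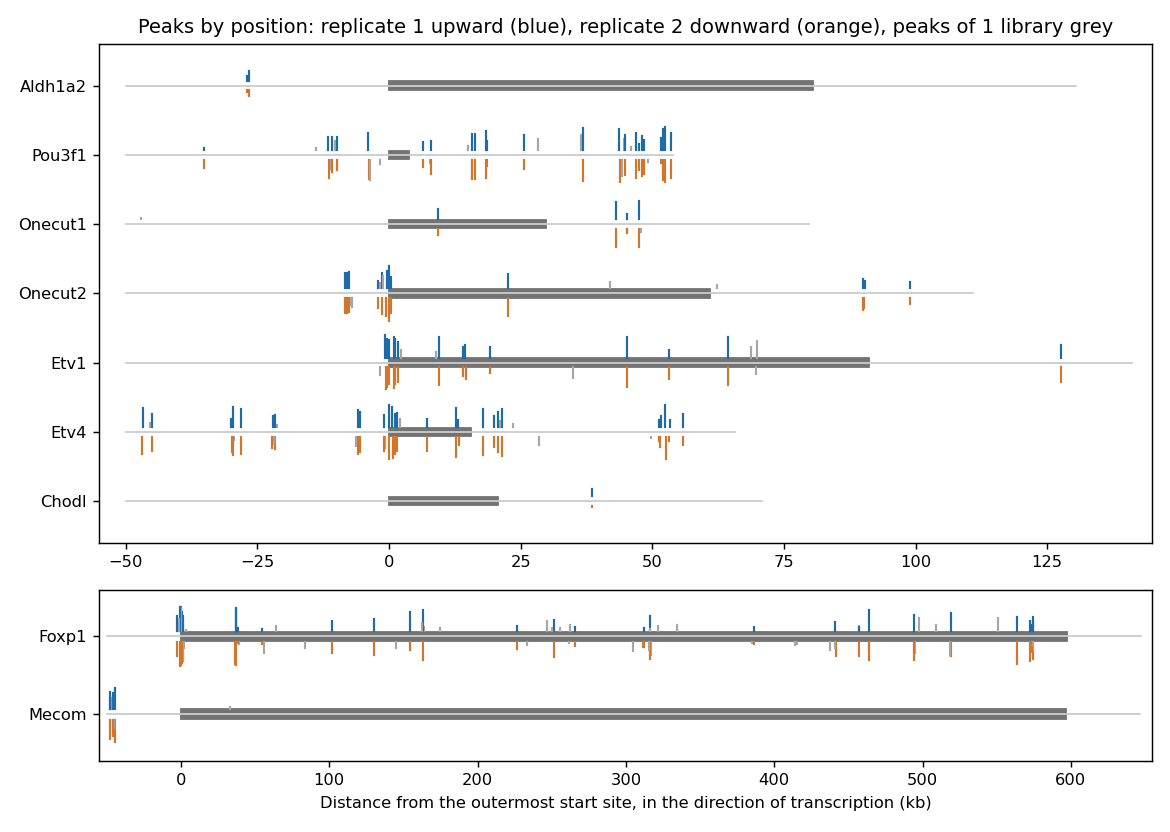
Position of each peak relative to the outermost start site in the direction of transcription (horizontal axis, kb), 1 row per member, with the gene body as a grey bar; ticks point up for replicate 1 and down for replicate 2, their length is the score percentile, and grey ticks are peaks of 1 library. Onecut2, Etv1, Etv4 and Foxp1 have tall ticks at 0 in both libraries, Pou3f1 has them on both sides of an empty gene, and the bodies of Aldh1a2 and Chodl hold none.

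Pou3f1 (also known as Scip or Oct6) encodes a POU homeodomain factor of motor pools for the distal forelimb and of phrenic motor neurons. It is a short gene of 3.85 kb with a single start (chromosome 4, 124656807 to 124660655). The window held 33 peaks in replicate 1 and 30 in replicate 2, with 23 shared, yet none lay in the gene or its promoter. A stretch of 7.87 kb around the start had no peak of either library. The nearest shared peak lay 3956 bp upstream in replicate 1, with scores of 77 and 87. Replicate 2 alone had a stronger peak beside it, 3636 bp upstream with a score of 104 (percentile 89.2), and a weak one 1636 bp upstream with a score of 22.

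The dense flank of Pou3f1 belongs partly to its neighbours. Utp11, a ribosome-assembly gene, and Fhl3, a LIM-domain gene, both had promoter peaks in both libraries within the window, and 3 of the 23 shared peaks were theirs. The predicted gene 3100002H09Rik, which also starts in the window, was not open in both libraries. The highest distal peak in any member's window lay 52.3 kb downstream with scores of 144 and 141 (percentiles 99.3 and 98.9), 5625 bp from the start of Sf3a3, a splicing gene. When only peaks nearest to the member's own start were kept, 8 of the 23 were left. These 8 were the shared peaks from 11.5 kb upstream to 16.3 kb downstream. Among them the peak 3956 bp upstream scored highest in replicate 1, and the peak 16.3 kb downstream in replicate 2 with 93. That one belongs to a pair 15.7 and 16.3 kb downstream in 1 hotspot of 1238 bp in replicate 1. The upstream peak is shown with 2 copies of the SP/KLF consensus GGGGCGGGG in capitals, here on the minus strand. It also holds the E-box CAGCTG and the AP-1 site TGAGTCA.
Pou3f1 upstream peak, chr4:124652776-124652925, plus strand: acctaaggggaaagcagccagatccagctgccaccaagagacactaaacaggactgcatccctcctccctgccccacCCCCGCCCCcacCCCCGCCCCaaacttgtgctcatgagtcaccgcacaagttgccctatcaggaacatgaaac

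Aldh1a2 (also known as Raldh2) encodes the enzyme that makes retinoic acid, and in limb-level motor neurons it lets early-born neurons instruct later-born ones. The gene (chromosome 9, 71215789 to 71296243) has 1 start site. A stretch of 169.8 kb with no peak of either library contained the whole gene. Each library had 2 peaks in the window, at the same places 26.6 and 27.0 kb upstream. They scored 43 and 30 in replicate 1, and 24 and 16 in replicate 2, which is below the middle of both lists. Their nearest start site belonged to Aqp9, a water and glycerol channel gene. The closed start is rich in CpG dinucleotides: the ratio of observed to expected CpG within 500 bp was 0.929, which is in the top decile of protein-coding genes, where 91.8% were open in both libraries. Foxp1 was in the same decile with a ratio of 0.935 and was accessible. Its outermost start group is used only by noncoding transcripts. The next group of Foxp1, 1.56 kb downstream with 2 coding transcripts, had a ratio of 0.831. That value is within the range of a decile with 91.1% open.

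The other closed members differed in CpG content. Onecut1 had a ratio of 0.784, in a decile of which 88.1% were open. It stood between Etv4 at 0.768 and Onecut2 at 0.803 in the same decile, which were both open. Pou3f1 at 0.652 and Etv1 at 0.594 shared a decile with 78.1% open, and of the pair Etv1 was open. Chodl had a ratio of 0.398 and Mecom of 0.232, in deciles of which 42.3% and 28.8% were open. By the outermost start, 3 of the 5 closed members (Aldh1a2, Onecut1 and Pou3f1) thus lie in deciles where most genes were open. For Mecom this depends on the start chosen, since its outermost start is used by 1 noncoding transcript. Its next start group, 38.2 kb downstream with 5 transcripts, had a ratio of 0.646. That value is within the range of the decile with 78.1% open.

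**Figure D4:**
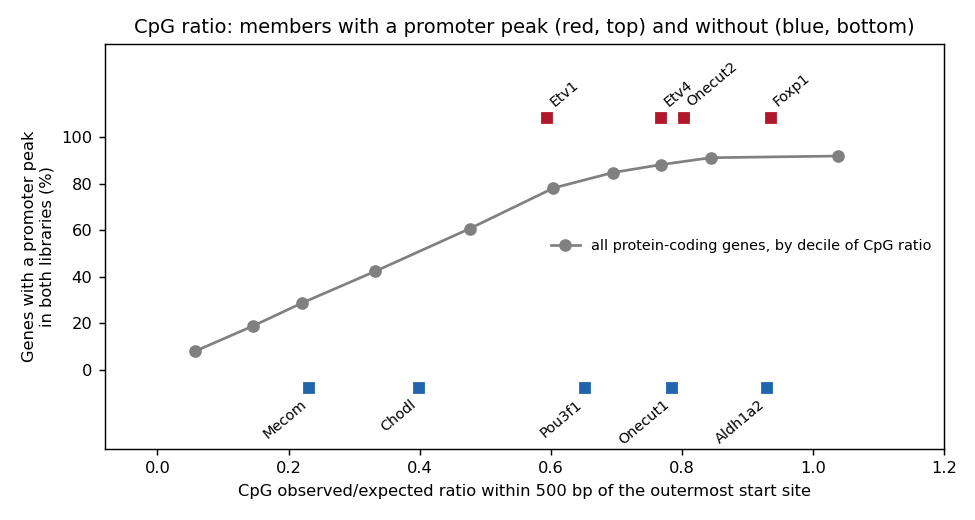
Percent of protein-coding genes with a promoter peak in both libraries (vertical axis) by decile of the CpG observed/expected ratio within 500 bp of the outermost start site (horizontal axis, grey points at the middle of each decile's range), with members placed by their own ratio above in red (peak in both) and below in blue (none). Aldh1a2 at 0.929 lies under the part of the curve at 91.8%, and Mecom at 0.232 where it is 28.8%. The next start group of Mecom, not drawn, has a ratio of 0.646.

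The RefSeq promoter table (build GRCm38.p6) held 6 of the 9 members. The 250 bases before the start are shown for 3 members with no peak there, with CpG in capitals, to set the CpG-rich starts of Aldh1a2 and Onecut1 beside that of Chodl, which has fewer CpG. They hold 40, 31 and 5 CpG. Over the full 300-base promoter, which adds 50 bases after the start, the counts were 50, 38 and 6, against a median of 6 over the table's 32851 promoters.
Aldh1a2 upstream, chr9:71215539-71215788, plus strand: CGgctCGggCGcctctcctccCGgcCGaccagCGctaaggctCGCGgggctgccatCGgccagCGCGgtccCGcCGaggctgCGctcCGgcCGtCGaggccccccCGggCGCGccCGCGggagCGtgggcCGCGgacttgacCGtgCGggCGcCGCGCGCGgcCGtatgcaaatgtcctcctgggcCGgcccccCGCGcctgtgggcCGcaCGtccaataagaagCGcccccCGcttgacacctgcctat
Onecut1 upstream, chr9:74861671-74861920, plus strand: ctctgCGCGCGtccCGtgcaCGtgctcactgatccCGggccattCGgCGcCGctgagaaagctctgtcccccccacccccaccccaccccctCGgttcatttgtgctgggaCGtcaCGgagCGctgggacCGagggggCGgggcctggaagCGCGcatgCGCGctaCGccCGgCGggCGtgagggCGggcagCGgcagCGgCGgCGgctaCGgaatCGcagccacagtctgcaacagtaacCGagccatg
Chodl upstream, chr16:78930698-78930947, plus strand: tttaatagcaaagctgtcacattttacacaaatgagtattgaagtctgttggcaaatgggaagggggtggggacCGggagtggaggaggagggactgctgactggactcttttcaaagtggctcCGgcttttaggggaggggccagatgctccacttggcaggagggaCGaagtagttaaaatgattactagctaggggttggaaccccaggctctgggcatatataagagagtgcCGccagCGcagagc

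Mecom (also known as Evi1 or Prdm3) encodes a zinc-finger factor of the PRDM family that is best known from blood stem cells. It spans 596.7 kb on the minus strand of chromosome 3 (29951296 to 30548008), nearly the length of Foxp1, with 16 start sites in 7 groups. None of the 7 had a promoter peak in either library, and no shared peak lay in the gene. Among the 230 genes of this length class, 26.5% also had no shared peak in the body (61 of 230). A stretch of 1478 kb with no peak of either library, from 29036446 to 30514615, held most of Mecom and all of its neighbour Egfem1. On the autosomes and X, 172 stretches of at least 1 Mb had no peak, leaving out those with 10% or more unsequenced bases, and 76 of them were at least this long. The single peak inside Mecom came from replicate 1, 4869 bp from a start site, with a score of 21 (percentile 6.98). The 4 shared peaks lay 44.5 to 48.2 kb upstream, and their nearest start belonged to Actrt3, an actin-related gene. The highest scored 86 and 95.

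Chodl encodes chondrolectin, a membrane protein enriched in fast motor neurons. The gene (chromosome 16, 78930948 to 78951733) lay in a stretch of 91.2 kb with no peak. Each library had 1 peak in the window, and the pair overlapped by part of its length, 38.5 kb downstream of the start in an intron of the neighbouring protease gene Tmprss15. It scored 36 in replicate 1 and 12 in replicate 2, which are percentiles 30.6 and 3.44. The sequences show the highest of the upstream peaks at Mecom, which matched none of the motifs searched, and the single peak at Chodl, with the match to the CTCF consensus in capitals.
Mecom upstream peak, chr3:30592456-30592605, plus strand: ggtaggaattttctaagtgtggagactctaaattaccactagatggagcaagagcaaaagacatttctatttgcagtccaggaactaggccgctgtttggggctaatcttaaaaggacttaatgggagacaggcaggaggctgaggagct
Chodl downstream peak, chr16:78969416-78969565, plus strand: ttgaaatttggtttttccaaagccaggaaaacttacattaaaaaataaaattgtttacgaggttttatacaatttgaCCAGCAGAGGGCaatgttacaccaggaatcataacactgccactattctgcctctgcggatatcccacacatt

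The open members had 22 (Foxp1), 1 (Onecut2), 13 (Etv1) and 10 (Etv4) start sites, and the closed ones 1 (Aldh1a2), 1 (Pou3f1), 2 (Onecut1), 16 (Mecom) and 3 (Chodl). With only the outermost start site of each gene, the same 4 members were open.

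By position, 22 of the 116 shared peaks lay at the member's own promoter (19.0%) and 7 at another gene's promoter (6.03%). Another 4 lay in exons, 40 in introns (34.5%) and 43 between genes (37.1%). Over all shared peaks, 27.9% lay at the promoter of any protein-coding gene, 33.2% in introns and 35.1% between genes. The open members held 82 shared peaks and the closed ones 34. The mean of the libraries' percentiles had a median of 77.4 for the 22 own-promoter peaks, against 80.6 for all shared promoter peaks, and of 54.4 for the 87 distal ones, against 57.2 for all shared distal peaks. Member peaks thus ranked slightly under the general level in both classes, a description with no test. The percentiles of the 116 shared peaks in the libraries had a Spearman correlation of 0.871, where the points share windows and libraries. Peaks of 1 library ranked lower than shared ones: their median percentile was 23.3 against 59.9 in replicate 1, and 30.9 against 64.5 in replicate 2.

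Short consensus motifs were counted on both strands in the shared peaks, as a description of letters and not of binding. In the 87 distal peaks, the HOX-PBX consensus TGATTNAT occurred in 7 (8.05%), against 2.82% of all 82318 shared distal peaks. The homeodomain core TAATTA occurred in 8 (9.20%), against 4.99%. The E-box CAGCTG was in 15 (17.2%), against 15.7%, and CATCTG in 14 (16.1%), against 20.1%. AP-1 sites, TGACTCA or TGAGTCA, were in 9 (10.3%), against 12.1%, and the CTCF consensus in 8 (9.20%), against 9.75%. The GATA core AGATAA was in 3 (3.45%), against 8.45%. The 7 distal peaks with TGATTNAT were 2 at Pou3f1, 2 at Etv1 and 1 each at Foxp1, Onecut2 and Etv4. The MEIS core TGACAG was in 6 (6.90%), against 13.9%, and the ONECUT cores ATTGAT and ATCGAT were in 4 (4.60%) and 2 (2.30%), against 3.86% and 0.473%. The SP/KLF consensus was in 1 (1.15%), the peak upstream of Pou3f1, against 0.975%. In the 22 own-promoter peaks, the ETS consensus CCGGAAG was not present, against 7.10% of all 31904 shared promoter peaks, and CAGCTG was in 4 (18.2%), against 10.6%. The MEIS core was in 2 of these 22 (9.09%), against 9.43%, the CCAAT-box core ATTGGCT in 2, against 4.70%, and the ONECUT core ATCGAT in 2, against 0.520%. With so few peaks, 1 match more or less moves each of these shares, so no difference is read from them.

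The close relatives of the members were also divided. Of 12 paralogs, 6 were open at the start in both libraries (50%), beside 59.2% of all protein-coding genes, and 6 in neither. In the PEA3 subfamily Etv5 was open as Etv1 and Etv4 were, with 20 shared peaks in its window. In the ONECUT family Onecut3 was open as Onecut2 was, with 24 shared peaks, and Onecut1 was the closed one. In the FOXP family Foxp3 and Foxp4 were open with 11 and 19 shared peaks, whereas Foxp2, a long gene like Foxp1, had no peak in either library. In the retinaldehyde dehydrogenase family Aldh1a3 was open with 18 shared peaks, while Aldh1a1 had 0 shared peaks and no promoter peak, as Aldh1a2 had none. All 4 class III POU genes were closed at the start, but Pou3f1 had 23 shared peaks in its window, against 0, 1 and 0 for Pou3f2, Pou3f3 and Pou3f4. Only 8 of the 23 were nearest to the start of Pou3f1, and the others lay nearer to other genes' starts. Prdm16, the paralog of Mecom, was closed with 3 shared peaks, and Layn, the relative of Chodl, was open with 12.

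**Figure D5:**
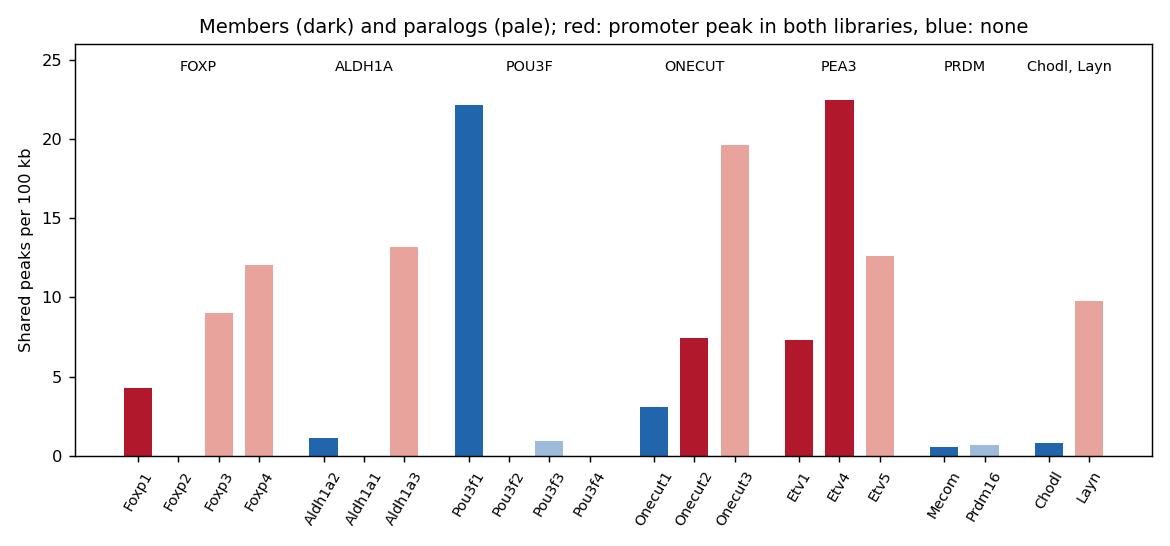
Shared peaks per 100 kb of gene body plus 50 kb each side (vertical axis) for members in dark and their paralogs in pale colours, grouped by family, in red with a promoter peak in both libraries and in blue with none. Pou3f1 at 22.1 stands over relatives at 0 to 0.931, while Aldh1a2 at 1.11 and Onecut1 at 3.08 lie under Aldh1a3 at 13.2 and Onecut3 at 19.6. With only peaks nearest to its own start, Pou3f1 has 7.70, a count not made for the paralogs.

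Other genes of motor column and pool identity give the setting of the members. Of 38 such genes, 23 were open at the start in both libraries (60.5%), close to the 59.2% of all protein-coding genes. One more, Cpne4, was open in a single library and 14 in neither. A shared distal peak was found at 34 of the 38, beside 81.1% of all genes. Among the genes for signals from the limb and their receptors, Ret, Gfra1 and Gfra3 were open, with 11, 29 and 16 shared peaks, while Met and Gdnf had no promoter peak and 1 and 3 shared peaks. Among guidance genes, Efna5 had the most shared peaks of the list with 45, Sema3f had 35 and Plxnd1 34, whereas Epha4 and Sema3e had 0. The cadherin genes that mark pools were closed, with 0 shared peaks at Cdh7 and Cdh8 and 1 at Cdh20. Among Hox genes, Hoxc5 and Hoxc6 each had 36 shared peaks, in windows that overlap, and were open. Hoxc9, Hoxc10 and Hoxa5 were open as well, so 5 of the 7 Hox genes listed were open. Hoxc8, with 35 shared peaks in the same block, and Hoxd10 had no promoter peak. Of 14 genes that mark fast, slow, alpha or gamma motor neurons, 7 were open in both libraries and 1, Htr1d, in replicate 1 only. Rbfox3, which encodes the neuronal marker NeuN, and Sv2a, a synaptic vesicle gene, had the most shared peaks with 36 and 35. Rbfox3 is long, and per 100 kb the 2 genes had 6.90 and 30.6, against a median of 7.78 over all protein-coding genes. Of the 35 at Sv2a only 10 were distal, and its own promoter had 3 peaks in replicate 1 and 4 in replicate 2. Most of the 35 thus lay at promoters of other genes. Esrrg, a gamma motor neuron gene, Kcnq5, a potassium channel gene, and Calca, which encodes CGRP, had 0.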

How the data were processed

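DNase-seq of MN1 was analysed from the peaks and hotspots of 2 libraries, on mm10. Per the labels and the notes deposited with the files, every list was made from 1 library's own filtered alignments, with no pooled calls. The caller is not given in the sources used here, nor are aligner and threshold. The authors gave each peak a score with no stated normalization, which was used only for ranks within a list. The deposited hotspots carry −log10 q-values between 1.30 and 6, and 100 as a cap for anything higher. Read depth is unknown, so no interval that needs it is given.

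Duplicate lines were dropped (43 in replicate 1, 20 in replicate 2), and the 19 autosomes, X and Y were used. Peaks were counted in gene body plus 50 kb windows of GENCODE M21 protein-coding genes (93513 start sites) with Python 3.11.15, pandas 2.3.3 and numpy 2.4.6. Promoters reached 1 kb to each side of any start site. Counting code was tested on simulated data. Coordinates are 1-based. Peak sequences were read from the GRCm38 genome.

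The members, gene lists and motifs were chosen with earlier results of these data known. Named are all members, up to 3 of each member's highest shared distal peaks, genes with starts in the windows, the paralogs, and the extremes of the column, pool and subtype lists, to which a few genes per role were added after their values were seen. Alternatives were other promoter widths, start sites, overlaps, score cuts, window sizes, hotspots, repeated entries kept and single libraries. One gene of the sympathoadrenal list is not reported here.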

Additional observations from a re-analysis of the deposited data

How the results depend on the processing

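The same 4 members had a promoter peak in both libraries, or in the library kept, under all 9 settings run for it (81 of 81 calls over the 9 members). Some of these calls could not change. The promoter call does not use the overlap rule, so the 75 bp setting leaves it as it was. Leaving out a library could not change it either, since no member had a promoter peak in only 1 library. Shared peaks per 100 kb had a median of 4.30 over the members. It was 3.73 with 75 bp overlap, 2.01 with only peaks scoring above each list's median, 3.73 for hotspots, 5.01 with 25 kb flanks, 5.22 with 100 kb flanks and 3.35 in the gene body alone. With each library left out in turn, and all peaks of the other counted, it was 7.46 to 7.60. With only peaks nearest to a member's own start, a choice made after seeing the data, it was 4.16. The 116 shared peaks became 68 above the median score, 180 with 100 kb flanks and 50 in the gene body alone. In the gene body alone, 5 members kept a shared distal peak. The share of all protein-coding genes was not computed at that setting, so nothing is read from this count. The shared part of replicate 1 was 62.0% with 75 bp overlap and 82.9% above the median score. Window counts of single members moved in 28 of 81 cases. With 25 kb flanks Aldh1a2 and Mecom had 0 shared peaks, and above the median score Aldh1a2 and Chodl had 0. Except where a setting by its construction counts fewer or more peaks, the cause was not tested. No paired analysis was possible because the series has 1 group. Unknown read depth limits all of this: a site with no listed peak may be open below the unstated calling threshold.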
